A study of Homo sapiens with 4 samples.

Results

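The circadian clock genes are the transcription factors and repressors that keep time inside a cell. They were taken here as ARNTL, CLOCK, PER1, PER2, PER3, CRY1, CRY2, NR1D1, NR1D2 and DBP, matched by gene name among the 58735 rows of the deposited expression table, where all 10 were present. RNA was sequenced from HFL1, an established human fetal lung fibroblast line. The mutant cells are labelled KO, which the series' design text ties to calumenin, the calcium-binding secretory pathway protein encoded by CALU, and the control cells are labelled WT, of the same line with no other treatment named. Each group had 2 libraries. The labels name no guide, clone or separate culture, no synchronising treatment and no hour of harvest, so the p-values reflect library-to-library spread alone, possibly technical, and a difference in level cannot be told apart from a difference in clock phase.

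In the mammalian clock the proteins of ARNTL (BMAL1) and CLOCK pair and activate genes that carry E-boxes, among them the PER and CRY genes, NR1D1, NR1D2 and DBP. PER and CRY proteins gather in the nucleus and inhibit that pair, which closes the main loop. NR1D1 and NR1D2, the nuclear receptors REV-ERB alpha and beta, repress ARNTL through ROR response elements, and DBP activates genes through D-boxes. Fibroblasts hold such clocks cell by cell, and in an unsynchronised culture their phases are mixed, so the RNA of a whole culture averages over them.

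Promoter letters of 4 members are shown as description, and no expression result rests on them. NR1D1 was the member called; NR1D2, PER1 and ARNTL were chosen after their values were seen. The letters are from RefSeq windows on GRCh38.p14 that run from 250 bases before to 50 bases after a gene's start, and stretches inside annotated exons of the gene were left out, except for the short ARNTL site. Capitals mark a match to a searched motif.
NR1D1, chr17:40100726-40100839, minus strand, with an E′-box in reverse: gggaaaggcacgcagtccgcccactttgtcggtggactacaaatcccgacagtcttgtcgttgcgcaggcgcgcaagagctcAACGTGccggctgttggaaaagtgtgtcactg
NR1D2, second listed start, chr3:23945871-23946120, plus strand, with a D-box and 2 E-boxes: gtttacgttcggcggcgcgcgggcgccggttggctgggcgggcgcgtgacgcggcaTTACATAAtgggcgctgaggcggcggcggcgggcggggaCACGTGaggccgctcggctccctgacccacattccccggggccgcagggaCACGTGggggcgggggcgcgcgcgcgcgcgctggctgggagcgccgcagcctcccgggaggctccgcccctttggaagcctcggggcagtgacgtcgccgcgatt
PER1, chr17:8152436-8152654, minus strand, with an E-box: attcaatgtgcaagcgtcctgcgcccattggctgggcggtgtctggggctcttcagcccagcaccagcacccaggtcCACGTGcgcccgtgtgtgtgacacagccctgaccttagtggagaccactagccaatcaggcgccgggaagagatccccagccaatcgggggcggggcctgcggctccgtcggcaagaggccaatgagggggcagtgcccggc
ARNTL, second listed start, chr11:13277810-13277836, plus strand, with a ROR response element just after that start: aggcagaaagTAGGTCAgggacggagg

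All 10 members matched a RefSeq promoter entry (ARNTL under its newer symbol BMAL1), in 15 windows, since 5 members had 2 listed starts. Motifs were searched on both strands, and none of the searched motifs is contained in another. The E-box CACGTG was in the windows of 2 members, PER1 and NR1D2, against 7.26% of all 35116 promoter windows. The E′-box CACGTT was in 5 members (CLOCK, PER2, CRY1, CRY2 and NR1D1), against 5.34% of windows. The D-box TTANGTAA was in 3 members (PER2, PER3 and NR1D2), against 2.18% of windows. The ROR element core TAGGTCA was in ARNTL and CRY2, against 1.85% of windows. The cyclic AMP element TGACGTCA, also in 1.85% of windows, was in 0 members, and the DBP window held none of the 5 motifs. A match is a description of these letters only, and members with 2 windows had more sequence to match than a single window.

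Reads recovered from the deposited values numbered 17699349 and 16622382 in the KO libraries and 17715774 and 16173899 in the WT libraries. CALU had 6.59 and 5.95 FPKM (fragments scaled to gene length and to library size) in KO, against 87.7 and 81.8 FPKM in WT. That is 13.5-fold lower (log2 -3.56, SE 0.14, limma adjusted p = 0.00154), so the targeted transcript went with the labels. Of 13 fibroblast marker genes 8 were under 1 FPKM in all 4 libraries, COL1A2 and POSTN at 0 reads, so most of these markers go against the fibroblast label. Their summed level was 567 and 820 FPKM in KO, against 1023 and 1412 FPKM in WT, and S100A4 made up most of it, at 449 and 723 FPKM in KO and 933 and 1352 FPKM in WT (limma adjusted p = 0.0789). The other 12 markers summed the other way, to 118 and 97.1 FPKM in KO, against 90.4 and 59.8 FPKM in WT, mostly through VIM, at 106 and 84.6 FPKM in KO and 76.5 and 46.8 FPKM in WT (adjusted p = 0.136). COL1A1 was called higher, at 3.04 and 3.16 FPKM in KO and 0.234 and 0.280 FPKM in WT. It passed the filter on low values, at least 1 FPKM in at least 2 libraries, only through the KO libraries. TWIST2 was called lower. S100A4, VIM, COL1A1 and TWIST2 were named after their values were seen. Over all genes tested 12.1% were called higher and 11.1% lower in KO, and no marker list was tested against these shares. Of 8 epithelial markers 4 were higher and 2 lower in KO, with sums of 1530 and 1760 FPKM in KO and 708 and 815 FPKM in WT. KRT8 and KRT18 made up most of these sums, so these 2 epithelial keratins were abundant in every library. KRT8 had 731 and 926 FPKM in KO and 349 and 425 FPKM in WT. KRT18 had 710 and 741 FPKM in KO and 326 and 356 FPKM in WT. The 2 called lower, KRT15 and CLDN4, passed the filter on low values only through the WT libraries. These 4 were named after their values were seen. Of 6 markers of dividing cells 5 were higher, with sums of 465 and 413 FPKM in KO and 203 and 206 FPKM in WT. The sixth, PCNA, was not called and made up most of the WT sums. PCNA had 197 and 181 FPKM in KO and 183 and 169 FPKM in WT, so the sums understate the other 5. Those 5, CCNB1, CDK1, MKI67, PLK1 and TOP2A, had log2 changes from 2.40 to 3.26. These 6 markers were named after their values were seen. The 4 endothelial markers and 3 of 4 leukocyte markers stayed below 1 FPKM in every library. The fourth leukocyte marker, CD14, named after its values were seen, was called lower like NR1D1, with 5.84 and 6.41 FPKM in KO, against 19.4 and 16.9 FPKM in WT (log2 -1.42, limma adjusted p = 0.00457). The part of any of these differences in the clock results was not tested. In bulk RNA, fewer cells of a type and less RNA per cell cannot be told apart.

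All 10 clock genes were measured well enough to test, with 170 to 1646 reads per gene and library and levels of 1.28 to 16.8 FPKM. A gene was called where its limma adjusted p over all 14100 genes tested was under 0.05. NR1D1 was lower in KO and was called, 0 members were called higher, and 9 members were not called. Among all genes tested 23.3% were called, 12.1% higher and 11.1% lower, so a single call among 10 genes is not above the background of this fit. That background depends on the setting: it was 11.0% without WT replicate 1 and 1.16% with no filter on low values, and NR1D1 was again the only member called in each. The median log2 change of the 10 members was -0.10, beside 0.03 for all genes tested. At an unadjusted p under 0.05 there were 2 members, NR1D1 and NR1D2, both lower. The KO and WT libraries did not overlap for 5 members, with ARNTL and CRY1 above WT in KO and NR1D1, NR1D2 and PER1 below it, while 65.7% of all genes tested did not overlap (34.4% with KO above and 31.3% with KO below). The summed level of the 10 members was 42.7 and 36.6 FPKM in KO, against 58.3 and 53.2 FPKM in WT.

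**Figure D1:**
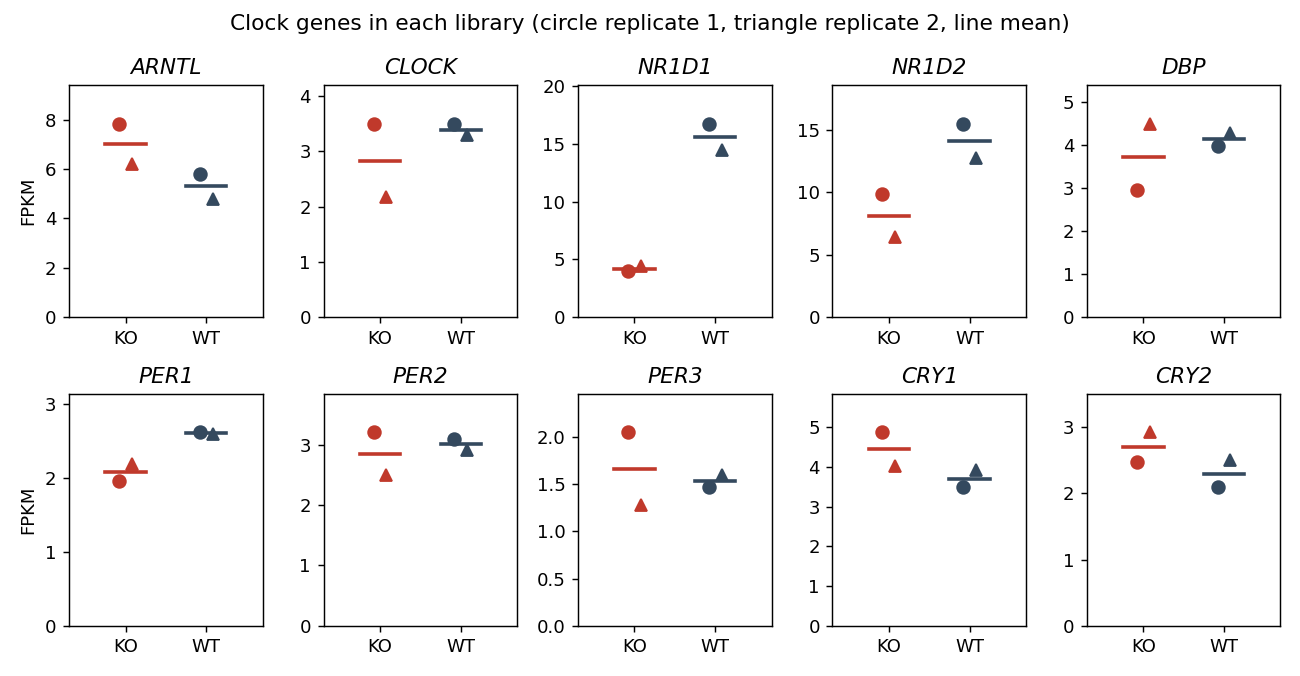
Level of each clock gene in FPKM (vertical axes from 0, each with its own scale), with KO libraries on the left and WT libraries on the right, circles for replicate 1, triangles for replicate 2 and lines at group means of 2 libraries. The NR1D1 libraries lie at 3.996 and 4.40 FPKM in KO, against 16.8 and 14.5 FPKM in WT, while the groups overlap for CLOCK, DBP, PER2, PER3 and CRY2.

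The REV-ERB receptors held the largest differences among the members. NR1D1 (ENSG00000126368, chromosome 17, 40092787 to 40100725, minus strand, GRCh38) had 3.996 and 4.40 FPKM in KO, against 16.8 and 14.5 FPKM in WT. Both KO libraries lay far below both WT libraries, on 194 and 200 reads in KO against 849 and 659 reads in WT. Its mean was 4.20 ± 0.288 FPKM in KO and 15.6 ± 1.61 FPKM in WT (SD, n = 2 each), 3.72-fold lower. The log2 change, on the log2(FPKM + 1) scale used throughout, was -1.68 (SE 0.14, 95% interval -2.03 to -1.32, limma adjusted p = 0.00383). Its change ranked 160 from the lowest among the 14100 genes tested, and 2.38% had a change at least as large in either direction. The call was kept in all 16 alternative settings, where the log2 change ran from -1.89 to -1.58 and the adjusted p from 8.82e-05 to 0.0475.

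NR1D1 lies tail to tail with THRA, the thyroid hormone receptor alpha gene on the opposite strand, and 263 bases, or 9.49% of the NR1D1 exons, are also THRA exon. Whether reads were counted by strand is not given in the sources used here, so reads in the shared stretch cannot be assigned with certainty. THRA had 9.77 and 12.6 FPKM in KO, against 11.8 and 15.6 FPKM in WT. These ranges overlap, and the log2 change was -0.27 (SE 0.20, limma adjusted p = 0.363).

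NR1D2 (ENSG00000174738, chromosome 3, 23945260 to 23980618, plus strand), the other REV-ERB, had 9.84 and 6.39 FPKM in KO, against 15.5 and 12.8 FPKM in WT. Both KO libraries lay below both WT libraries, and the KO libraries differed more from each other than the WT libraries did. Its mean was 8.11 ± 2.44 FPKM in KO and 14.1 ± 1.94 FPKM in WT (SD, n = 2 each), 1.74-fold lower. The log2 change of -0.75 (SE 0.22, 95% interval -1.31 to -0.20) missed the threshold, with a limma adjusted p of 0.0628 and an unadjusted p of 0.0167. The gene passed without KO replicate 1 (log2 -1.03, limma adjusted p = 0.0171) and without WT replicate 2 (log2 -0.88, adjusted p = 0.0470). Without KO replicate 2 the log2 change was -0.47 (adjusted p = 0.103), and without WT replicate 1 it was -0.62 (adjusted p = 0.193).

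The balance between the receptors within each library is made from the values just given and is not further evidence. The ratio of NR1D1 to NR1D2 in FPKM was 0.406 and 0.690 in KO, against 1.08 and 1.14 in WT. All KO ratios lay below all WT ratios, and NR1D1 was the less abundant receptor RNA in KO. In WT it was the more abundant by little, and the levels of the receptors overlapped between the WT libraries. Reads in the stretch shared with THRA, which cannot be assigned, also enter this ratio. With 2 libraries a group, the exact permutation p (two-sided) was 0.333, the smallest it can be.

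**Figure D2:**
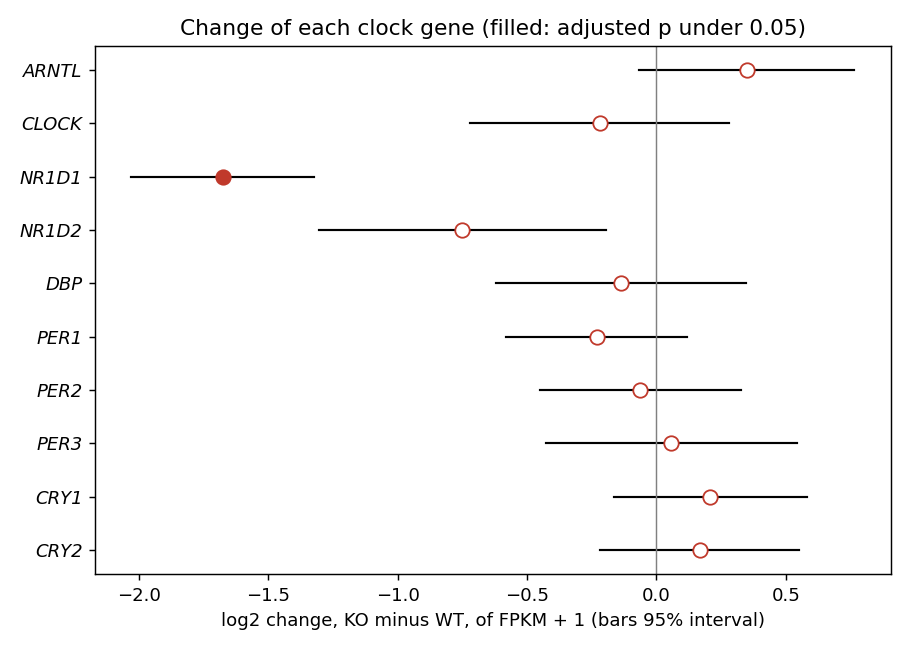
Log2 change of each clock gene, KO minus WT, on the log2(FPKM + 1) scale, with bars for the 95% interval from limma and a filled point for an adjusted p under 0.05. NR1D1 is the filled point, at -1.68, the interval of NR1D2 also lies below 0, and the intervals of the other 8 members cross 0.

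Neither activator was called. ARNTL (ENSG00000133794, chromosome 11, 13276652 to 13387266, plus strand), the essential activator of the loop, had 7.84 and 6.22 FPKM in KO, against 5.78 and 4.80 FPKM in WT. The lower KO library was just above the higher WT library. Its mean was 7.03 ± 1.15 FPKM in KO and 5.29 ± 0.691 FPKM in WT (SD, n = 2 each), and the log2 change of 0.35 (SE 0.17, 95% interval -0.07 to 0.76) was not called (limma adjusted p = 0.184). CLOCK (ENSG00000134852, chromosome 4, 55427903 to 55547138, minus strand), its partner, had 3.49 and 2.17 FPKM in KO, against 3.50 and 3.29 FPKM in WT. One KO library matched the WT libraries and the other was lower, and the log2 change was -0.22 (SE 0.20, 95% interval -0.72 to 0.28, limma adjusted p = 0.470).

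The ratio of ARNTL to NR1D1 in FPKM was 1.96 and 1.41 in KO, against 0.344 and 0.331 in WT. The ratio of ARNTL to NR1D2 was 0.796 and 0.973 in KO, against 0.373 and 0.376 in WT. All KO ratios lay above all WT ratios, and each gave the smallest exact two-sided permutation p of 0.333. These ratios share the members already described and are not further evidence.

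The PER genes encode the repressors that set the length of the cycle together with the CRY proteins, and none of them was called. PER1 (ENSG00000179094, chromosome 17, 8140472 to 8156506, minus strand), the member most quickly induced by hormones and serum, had 1.96 and 2.20 FPKM in KO, against 2.62 and 2.60 FPKM in WT. Both KO libraries were lower than both WT libraries, by little, with a log2 difference of -0.23 (SE 0.14, 95% interval -0.58 to 0.12, limma adjusted p = 0.280). PER2 (ENSG00000132326, chromosome 2, 238244038 to 238290102, minus strand) had 3.21 and 2.50 FPKM in KO, against 3.11 and 2.92 FPKM in WT. The WT libraries lay between the KO libraries, and the log2 change was -0.06 (SE 0.16, 95% interval -0.45 to 0.33, limma adjusted p = 0.801). PER3 (ENSG00000049246, chromosome 1, 7784320 to 7845177, plus strand), the least abundant member, had 2.05 and 1.28 FPKM in KO, against 1.47 and 1.60 FPKM in WT. The KO libraries again lay on either side of the WT libraries, with a log2 difference of 0.06 (SE 0.19, 95% interval -0.43 to 0.54, limma adjusted p = 0.854). The PER3 exons share 868 bases with UTS2, which had 0 reads in every library.

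The CRY genes encode the stronger repressors of the ARNTL and CLOCK pair, and neither was called. CRY1 (ENSG00000008405, chromosome 12, 106991364 to 107093829, minus strand) had 4.87 and 4.03 FPKM in KO, against 3.48 and 3.93 FPKM in WT. The lower KO library exceeded the higher WT library by little, and the log2 change was 0.21 (SE 0.15, 95% interval -0.16 to 0.58, limma adjusted p = 0.355). CRY2 (ENSG00000121671, chromosome 11, 45847118 to 45883248, plus strand) had 2.48 and 2.92 FPKM in KO, against 2.09 and 2.50 FPKM in WT. Its groups overlapped, with a log2 difference of 0.17 (SE 0.15, 95% interval -0.22 to 0.55, limma adjusted p = 0.475).

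DBP (ENSG00000105516, chromosome 19, 48630030 to 48637438, minus strand), the E-box target that acts on D-boxes, had 2.95 and 4.50 FPKM in KO, against 3.98 and 4.28 FPKM in WT. The WT libraries lay between the KO libraries, and the log2 change was -0.14 (SE 0.19, 95% interval -0.62 to 0.34, limma adjusted p = 0.645). DBP shares 661 exon bases, 10.1% of its exons, with SPHK2, a sphingosine kinase gene on the opposite strand. SPHK2 had 4.55 and 5.57 FPKM in KO, against 10.3 and 10.4 FPKM in WT, and was called lower (log2 -0.91, limma adjusted p = 0.0126), so the DBP level is uncertain to the extent that shared reads were counted for it.

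**Figure D3:**
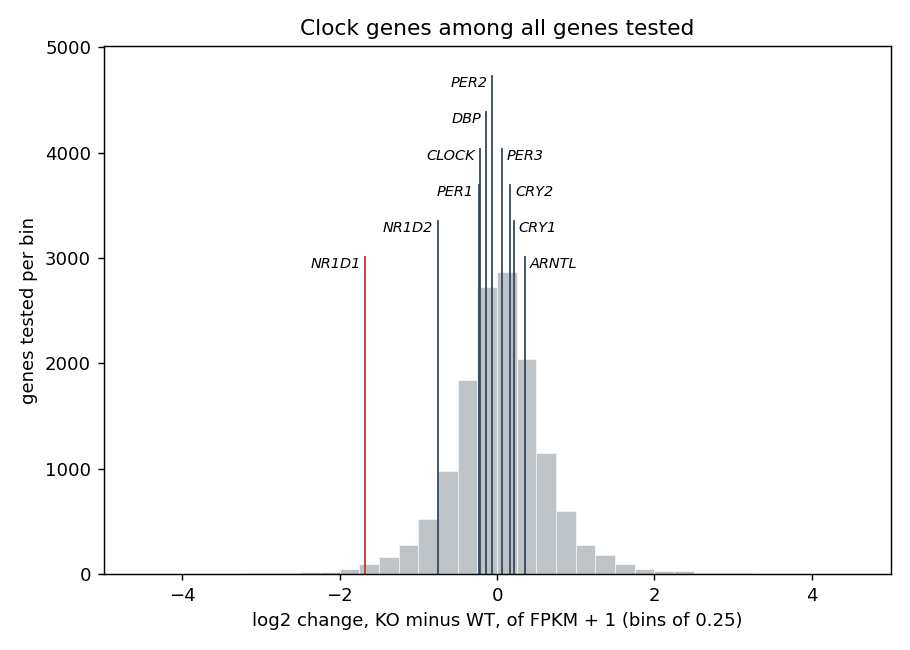
Number of tested genes (vertical axis) by log2 change, KO minus WT, in bins of 0.25 (horizontal axis), for all 14100 genes, with a line for each clock gene whose height only places its name. NR1D1, in red, lies in the lower tail at -1.68 and NR1D2 at -0.75, and the other 8 lie between -0.23 and 0.35.

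Levels per gene length placed the members in a different order in each group. In KO the order of mean FPKM from highest to lowest was NR1D2, ARNTL, CRY1, NR1D1, DBP, PER2, CLOCK, CRY2, PER1 and PER3. In WT it was NR1D1, NR1D2, ARNTL, DBP, CRY1, CLOCK, PER2, PER1, CRY2 and PER3. In KO the 2 libraries of neighbouring genes overlapped throughout this order except between ARNTL and CRY1 and between CRY2 and PER1. In WT they overlapped between NR1D1 and NR1D2 and between CRY1 and CLOCK, and every other pair of neighbours was separate. The largest change of place was that of NR1D1, rank 4 in KO and rank 1 in WT.

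Beyond the members, 59 genes of the clock pathway in 6 lists were examined, of which 53 were tested. Among these 53, 7 were called higher and 6 lower in KO, with a median log2 change of -0.045, beside 12.1% higher, 11.1% lower and a median of 0.03 over all genes tested. The counts of each list below stand beside these same shares, and no list was tested against them.

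Of 4 tested paralogs of the core loop, 0 were called higher and 1 lower, with a median log2 change of -0.60. BHLHE41 (DEC2), an E-box repressor, had 0.419 and 0.386 FPKM in KO, against 2.90 and 2.29 FPKM in WT, 6.44-fold lower (log2 -1.35, SE 0.17, limma adjusted p = 0.00727) on 29 and 25 reads in KO against 209 and 148 reads in WT. It passed the filter on low values only through the WT libraries, and with no filter its adjusted p was 0.0576. Its paralog BHLHE40 (DEC1) was far more abundant and similar in both groups, at 78.2 and 75.2 FPKM in KO, against 84.0 and 78.8 FPKM in WT (log2 -0.08, adjusted p = 0.709). NPAS2, which can replace CLOCK, had 6.65 and 4.99 FPKM in KO, against 10.97 and 8.64 FPKM in WT (log2 -0.67, adjusted p = 0.0557), and ARNTL2, a paralog of ARNTL, had 7.62 and 5.51 FPKM in KO, against 10.8 and 9.02 FPKM in WT (log2 -0.54, adjusted p = 0.0943). Both lay below WT in each KO library without being called. NPAS2 passed in 6 of 16 alternative settings, among them those without KO replicate 1 (adjusted p = 0.0329) and without WT replicate 2 (0.0488), and ARNTL2 in 3, among them that without KO replicate 1 (0.0366). The ratio of NPAS2 to CLOCK was 1.90 and 2.30 in KO, against 3.13 and 2.63 in WT. For KO against WT, the exact two-sided permutation p of this ratio was 0.333, the smallest possible. NPAS2 was the more abundant of the pair in every library. RORA, RORB and CIART stayed below 1 FPKM in every library and were not tested. RORA, which activates ARNTL through the elements that NR1D1 occupies, had 0.235 and 0.150 FPKM in KO and 0.219 and 0.165 FPKM in WT, and RORB had 0 reads.

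Of the other D-box factors 2 were tested, with 0 called higher and 1 lower. TEF, an activator related to DBP, had 2.66 and 3.21 FPKM in KO, against 5.09 and 5.60 FPKM in WT. Both KO libraries were lower, by 1.82-fold in the mean (log2 -0.69, SE 0.15, limma adjusted p = 0.0258), but the call was lost without KO replicate 1 (adjusted p = 0.0566), WT replicate 1 (0.0755) or WT replicate 2 (0.122). NFIL3, the repressor at D-boxes, had 8.49 and 6.59 FPKM in KO, against 11.1 and 7.87 FPKM in WT, with overlapping groups (log2 -0.29, adjusted p = 0.359). HLF stayed below 1 FPKM in every library.

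The list of kinases and ubiquitin enzymes that set the stability of clock proteins also held TIMELESS, which is neither. Of its 14 tested genes 1 was called higher and 0 lower, with a median log2 change of -0.14. No tested kinase or ubiquitin enzyme was called. CSNK1D, a kinase of PER proteins, averaged 18.2 FPKM in KO and 23.3 FPKM in WT (limma adjusted p = 0.136). FBXW11, a ubiquitin ligase subunit for PER proteins, averaged 17.9 FPKM in KO and 21.7 FPKM in WT (adjusted p = 0.262). USP7 lay the other way, averaging 20.0 FPKM in KO and 15.7 FPKM in WT (adjusted p = 0.207). HUWE1 was similar in both groups, averaging 34.9 FPKM in KO and 33.8 FPKM in WT (adjusted p = 0.895). The gene called was TIMELESS, named after its values were seen, which had 23.1 and 24.0 FPKM in KO, against 9.28 and 11.0 FPKM in WT (2.33-fold higher, log2 1.15, SE 0.14, adjusted p = 0.00696). TIMELESS carries the name of a Drosophila clock gene and is known in mammals as a replication fork protein. Its relation to the markers of dividing cells given above was not tested.

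Of 15 cofactors 3 were called higher and 1 lower, beside 12.1% and 11.1% of all genes tested. Their median log2 change was 0.07. The genes of the RNA-binding proteins SFPQ and NONO, which associate with PER complexes, were each called higher. SFPQ had 48.4 and 46.0 FPKM in KO, against 23.4 and 26.7 FPKM in WT (1.88-fold, log2 0.89, limma adjusted p = 0.0131), and NONO had 105 and 109 FPKM in KO, against 63.1 and 68.2 FPKM in WT (1.64-fold, log2 0.70, adjusted p = 0.0243). The call of SFPQ was lost when WT replicate 1 was left out (adjusted p = 0.0911), and that of NONO when WT replicate 1 (0.203) or WT replicate 2 (0.106) was. HDAC3, the deacetylase that REV-ERB receptors recruit with NCOR1, had 11.4 and 11.2 FPKM in KO, against 7.42 and 7.63 FPKM in WT (log2 0.53, adjusted p = 0.0351). CREBBP, an acetyltransferase coactivator, had 7.02 and 6.55 FPKM in KO, against 10.2 and 9.96 FPKM in WT (log2 -0.51, adjusted p = 0.0401). HDAC3 and CREBBP each lost the call without any single library, at adjusted p of 0.0522 to 0.253 and 0.0533 to 0.260.

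Of 8 input factors, which pass hormone, heat and cyclic AMP signals to the clock, 0 were called higher and 2 lower, with a median log2 change of -0.11. HSF1, the heat shock factor, had 15.4 and 18.0 FPKM in KO, against 29.8 and 24.5 FPKM in WT (1.63-fold lower, log2 -0.67, limma adjusted p = 0.0389). CRTC3, a coactivator of CREB, had 5.05 and 4.58 FPKM in KO, against 7.32 and 7.02 FPKM in WT (1.49-fold lower, log2 -0.49, adjusted p = 0.0474). HSF1 lost its call without KO replicate 1 (adjusted p = 0.0803), WT replicate 1 (0.262) or WT replicate 2 (0.0661), and CRTC3 without any single library (0.0577 to 0.283).

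Output genes are driven by the clock and hormones in many tissues. Of 10 tested, 3 were called higher and 1 lower, beside 12.1% and 11.1% of all genes tested. Their median log2 change was 0.17. PDK4, a kinase that restrains pyruvate oxidation, had 53.0 and 42.3 FPKM in KO, against 7.89 and 8.41 FPKM in WT (5.85-fold higher, log2 2.40, limma adjusted p = 0.00286). FKBP5, a co-chaperone of the glucocorticoid receptor, had 3.34 and 3.54 FPKM in KO, against 0.866 and 0.827 FPKM in WT (4.06-fold higher, log2 1.27, adjusted p = 0.00577). It passed the filter on low values only through the KO libraries, and with no filter its adjusted p was 0.0520. WEE1, a kinase that delays mitosis, had 6.36 and 5.39 FPKM in KO, against 2.58 and 2.25 FPKM in WT (2.43-fold higher, log2 1.01, adjusted p = 0.0107). The relation of WEE1 to the markers of dividing cells was not tested. TSC22D3, a glucocorticoid-induced gene, had 9.02 and 9.09 FPKM in KO, against 17.1 and 17.4 FPKM in WT (1.91-fold lower, log2 -0.86, adjusted p = 0.0104). FKBP5 and TSC22D3 are both known to be induced by glucocorticoids, and a part of such hormones in these differences was not tested.

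**Figure D4:**
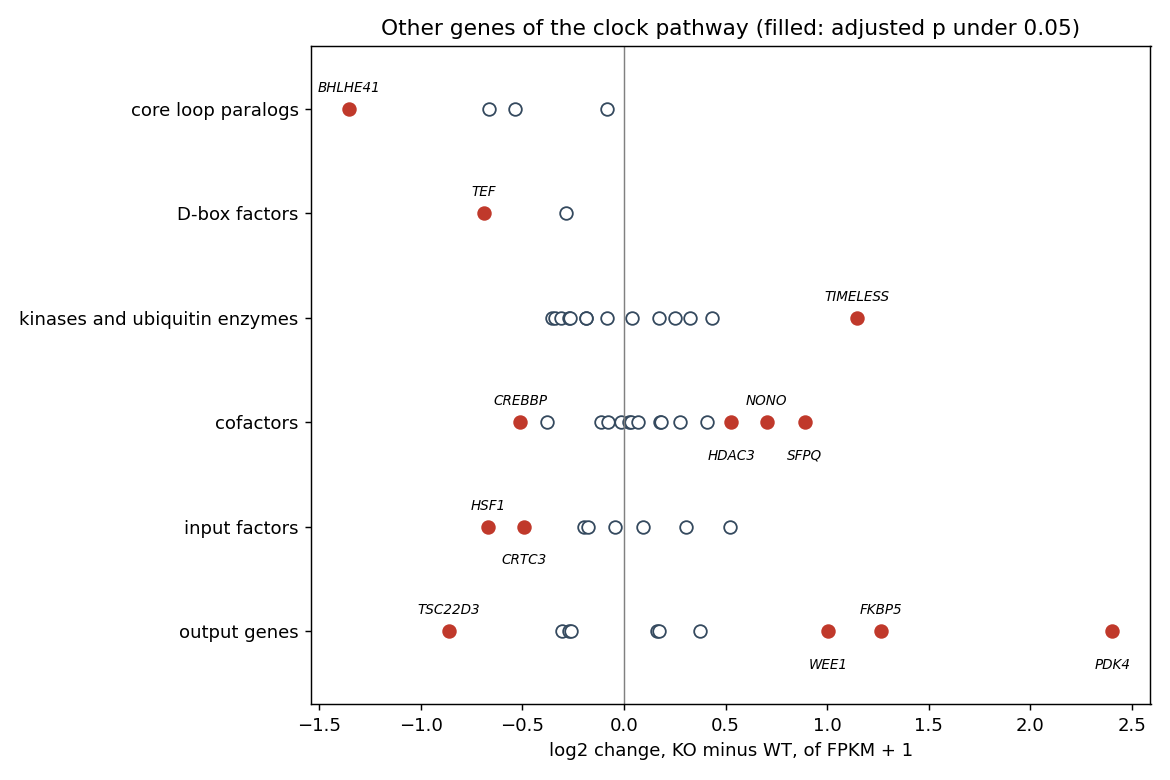
Log2 change, KO minus WT, on the log2(FPKM + 1) scale (horizontal axis) of the 53 tested genes of 6 clock pathway lists (rows), with filled points and names for genes with an adjusted p under 0.05. The filled points are 7 above 0 and 6 below it, from BHLHE41 at -1.35 to PDK4 at 2.40.

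Across the 16 alternative settings, the values of the 10 members kept their direction and side of the threshold in 152 of 160 cases. Settings that changed only the filter, the prior or the replicate block left each log2 change as it was. In those only the adjusted p could move, and the direction was fixed in advance. NR1D1 was called lower in every setting, NR1D2 was lower in every setting and called in 4, and ARNTL was higher in every setting and called in 0.

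**Figure D5:**
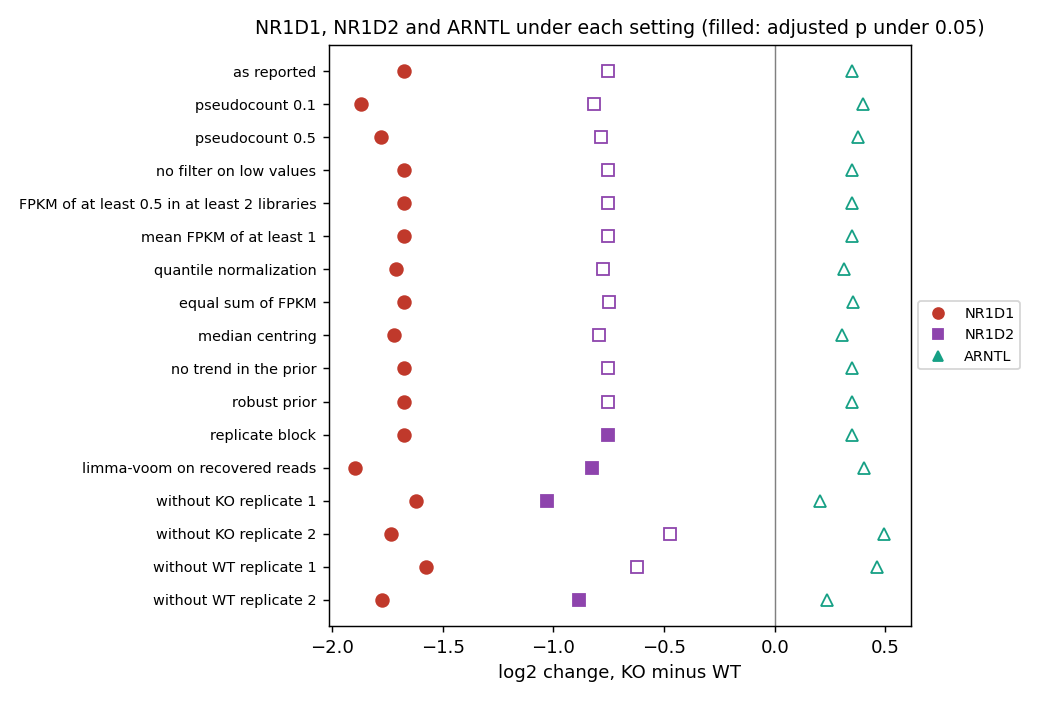
Log2 change, KO minus WT (horizontal axis, on the log scale of each setting), of NR1D1, NR1D2 and ARNTL as reported and under each of 16 alternative settings (rows). Points are filled where the adjusted p was under 0.05. NR1D1 stays between -1.89 and -1.58 and is filled throughout, NR1D2 is filled in 4 alternatives, and ARNTL stays above 0 and unfilled.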

How the data were processed

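The unit analysed was FPKM, 1 value per gene and library, as the authors deposited it in a single table. Reads were aligned with HISAT2 2.0.5, and hg38 and mm10 are the builds named, per the submitters' processing notes; which counting tool, strand setting and scaling were used was not given in the sources used here. Coordinates of all 58735 rows equalled GENCODE release 29 on GRCh38. Multiplied by gene length, 100% of values were whole multiples of a step (tolerance 0.01), which gave reads per library; the divisor implied was 0.990, 0.986, 1.03 and 1.01 times the reads in KO replicates 1 and 2 and WT replicates 1 and 2.

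Values were tested as log2(FPKM + 1), which understates changes of low genes, with limma 3.58.1 and statmod 1.5.0 in R 4.3.3. Genes of at least 1 FPKM in at least 2 libraries entered, 14100 in all, with an intensity-dependent prior, no replicate block and Benjamini-Hochberg adjustment over all of them. Folds are ratios of mean FPKM. The fit was tested on simulated data, where false calls were more frequent than the threshold allows and lay in short genes with fewer reads than any gene named here as called. The alternatives were other pseudocounts, filters, scalings and priors, a replicate block, limma-voom on recovered reads, and leaving out each library. Precision is limited by 2 libraries per group.

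The members and lists were chosen with earlier results of these data known. Named genes were all members, CALU, and up to 4 tested genes per list, the called ones in order of size, or the highest in level if fewer than 2 were called; others are said to be named after their values were seen. Some genes of the pathway lists are not reported here.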

Additional observations from a re-analysis of the deposited data

How the results depend on the processing

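NR1D1 kept its call and direction in all 16 alternatives, and CRY1, CRY2, PER1 and ARNTL kept their direction and stayed uncalled. Direction could not change in settings that altered only the filter, the prior or the replicate block. NR1D2 became called with limma-voom on recovered reads (log2 -0.83, adjusted p = 0.0204), so that 2 members were called lower. That setting called 29.3% of all genes tested, against 23.3% as reported, so 2 calls among 10 members are not above its background. Leaving out each library gave log2 ranges of -1.03 to -0.47 for NR1D2, -0.47 to 0.031 for CLOCK, -0.38 to 0.10 for DBP, -0.20 to 0.071 for PER2 and -0.15 to 0.27 for PER3, so the last 4 changed sign without a KO library. The number of members called lower then ran from 1 to 2. Over the 16 alternatives the adjusted p of NR1D2 ran from 0.00548 to 0.193. HUWE1, an abundant ubiquitin ligase near 0, changed sign with quantile normalization (log2 -0.044) and median centring (-0.0060), and ran from -0.12 to 0.19 when each library was left out.

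Replicate numbers are shared by the groups, but the labels do not say that they pair libraries, and deviations from the group means correlated at 0.411 between same-numbered libraries, across genes. With a replicate block NR1D2 was called (log2 -0.75, limma adjusted p = 0.00548) and 2 members were called lower. That setting called 39.3% of all genes tested, 2968 higher and 2577 lower, against 1711 and 1572 as reported. With no filter on low values 183 were called higher and 193 lower. BHLHE41, TEF, SFPQ, NONO, HDAC3, CREBBP, HSF1, CRTC3, FKBP5 and WEE1 then lost their calls, at adjusted p of 0.0520 to 0.107. Leaving out each library gave 898 to 1509 higher and 574 to 1592 lower. BHLHE41 gave no value without either WT library, and FKBP5 none without either KO library, because they then no longer passed the filter. NPAS2, not called as reported, passed with a replicate block, limma-voom, quantile normalization, median centring and without KO replicate 1 or WT replicate 2 (adjusted p over all alternatives 0.00593 to 0.257), and ARNTL2 passed with a replicate block, limma-voom and without KO replicate 1 (0.0142 to 0.374). The causes of these shifts were not tested.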
